A study of Mus musculus with 9 samples.

Results

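Synaptotagmins are vesicle and membrane proteins with paired C2 domains, and 10 of them (Syt1, Syt2, Syt3, Syt4, Syt5, Syt6, Syt7, Syt9, Syt11 and Syt13) were followed across glioma lines and neural stem cells of the mouse. They are 10 of the 17 synaptotagmins among 20715 rows of the deposited gene table. They were chosen by name, by a list drawn up with their log2 levels on these same arrays known, so the levels and group differences of the 10 genes are given as a description and no p of theirs is read as a test. Each was present as a single row, whose values equalled those of a single probe set on all arrays.

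Expression was measured on 9 Mouse Gene 1.0 ST arrays, 3 per group. The Hras lines came from CD1 brains electroporated with EGFP-Hras G12V, and the Erbb2 lines from CD1 brains electroporated with EGFP-P2A-Erbb2 V664E. Neural stem and progenitor cells (NSC) received reporters alone, a membrane EGFP in NSC 1 and a Histone 3.3-EGFP in NSC 2, both from CD1 mice, while NSC 3 came from C57/Bl6 mice with a floxed Dnm2 gene. All 9 arrays shared the nuclear blue reporter TagBFPnls-V5 and the pBase plasmid, and all cultures were grown from the subventricular zone in medium with EGF and FGF. The labels describe sorting for high GFP, but list no EGFP plasmid for NSC 3, whose description names a sort for the blue protein without Cre. The description of the array titled Hras line 3 ends with the number 4, and the title was followed. The labels do not say that each culture had an animal of its own, so the spread within a group may be partly technical.

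In neurons and endocrine cells a synaptotagmin sits on a vesicle or on the plasma membrane, binds calcium through its C2 domains and acts with SNARE proteins in membrane fusion. Syt1 and Syt2 are fast sensors of transmitter release, Syt7 is a slower sensor of high calcium affinity that also acts in lysosome exocytosis, and Syt3 and Syt6 belong to a subgroup linked by disulfide bonds near the N-terminus. The names Syt5 and Syt9 have been exchanged between studies, so these genes are given by the symbol of the files and without a subgroup. In Syt4 and Syt11 a calcium-binding residue of the first C2 domain is replaced, and Syt13 is an atypical member that lacks the calcium-binding residues. The family also moves vesicles in glia and secretory cells.

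The deposited values are on a log2 scale, on which a difference of 1 is a doubling. A value at or below 5.40 is called dim here, the limit under which 90% of the values of 1097 olfactory receptor genes fell. The arrays were not on the same scale. The median over 20690 genes was 6.98 to 7.19 in the Hras lines, 6.56 to 6.73 in the Erbb2 lines and 6.56 to 6.81 in NSC. Over all genes the median difference was 0.16 for Hras lines minus NSC, -0.14 for Erbb2 lines minus NSC, 0.29 for Hras minus Erbb2 lines and 0.01 for both tumour groups, averaged, minus NSC. Hras (listed as Hras1) was at 9.29 to 9.53 in the Hras lines, 8.82 to 9.24 in the Erbb2 lines and 8.96 to 9.81 in NSC. The Erbb2 gene was at 7.00 to 9.18 in the Erbb2 lines, 7.23 to 8.37 in the Hras lines and 7.23 to 7.74 in NSC. Dnm2, floxed in the mice of NSC 3, was at 9.74 to 10.66 in the Hras lines, 9.68 to 10.50 in the Erbb2 lines and 8.82 to 10.16 in NSC, with 9.99 in NSC 3. Neither Hras nor Erbb2 separated its lines from NSC, and neither was called by limma in any comparison; whether their probes read the transgenes is not known here. The RNA is that of whole cultures, in which more cells of a kind and more RNA per cell cannot be told apart.

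Across the family, Syt4 was higher on all tumour arrays than in NSC by 27.4-fold in the group means, Syt1 and Syt13 were high in some lines of each oncogene and near NSC in others, Syt6 was modestly higher throughout, and Syt11 had lower means in both tumour groups. Syt2, Syt3, Syt5, Syt7 and Syt9 had overlapping levels in tumour lines and NSC. Taken as a list, 8 of 10 differences were positive for Hras lines minus NSC, with a median of 0.37, beside 14167 of 20690 genes. For Erbb2 lines minus NSC 8 of 10 were positive, with a median of 0.26, beside 7598 of 20690 genes. For Hras minus Erbb2 lines 4 of 10 were positive, with a median of -0.12, beside 16307 of 20690 genes.

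**Figure D1:**
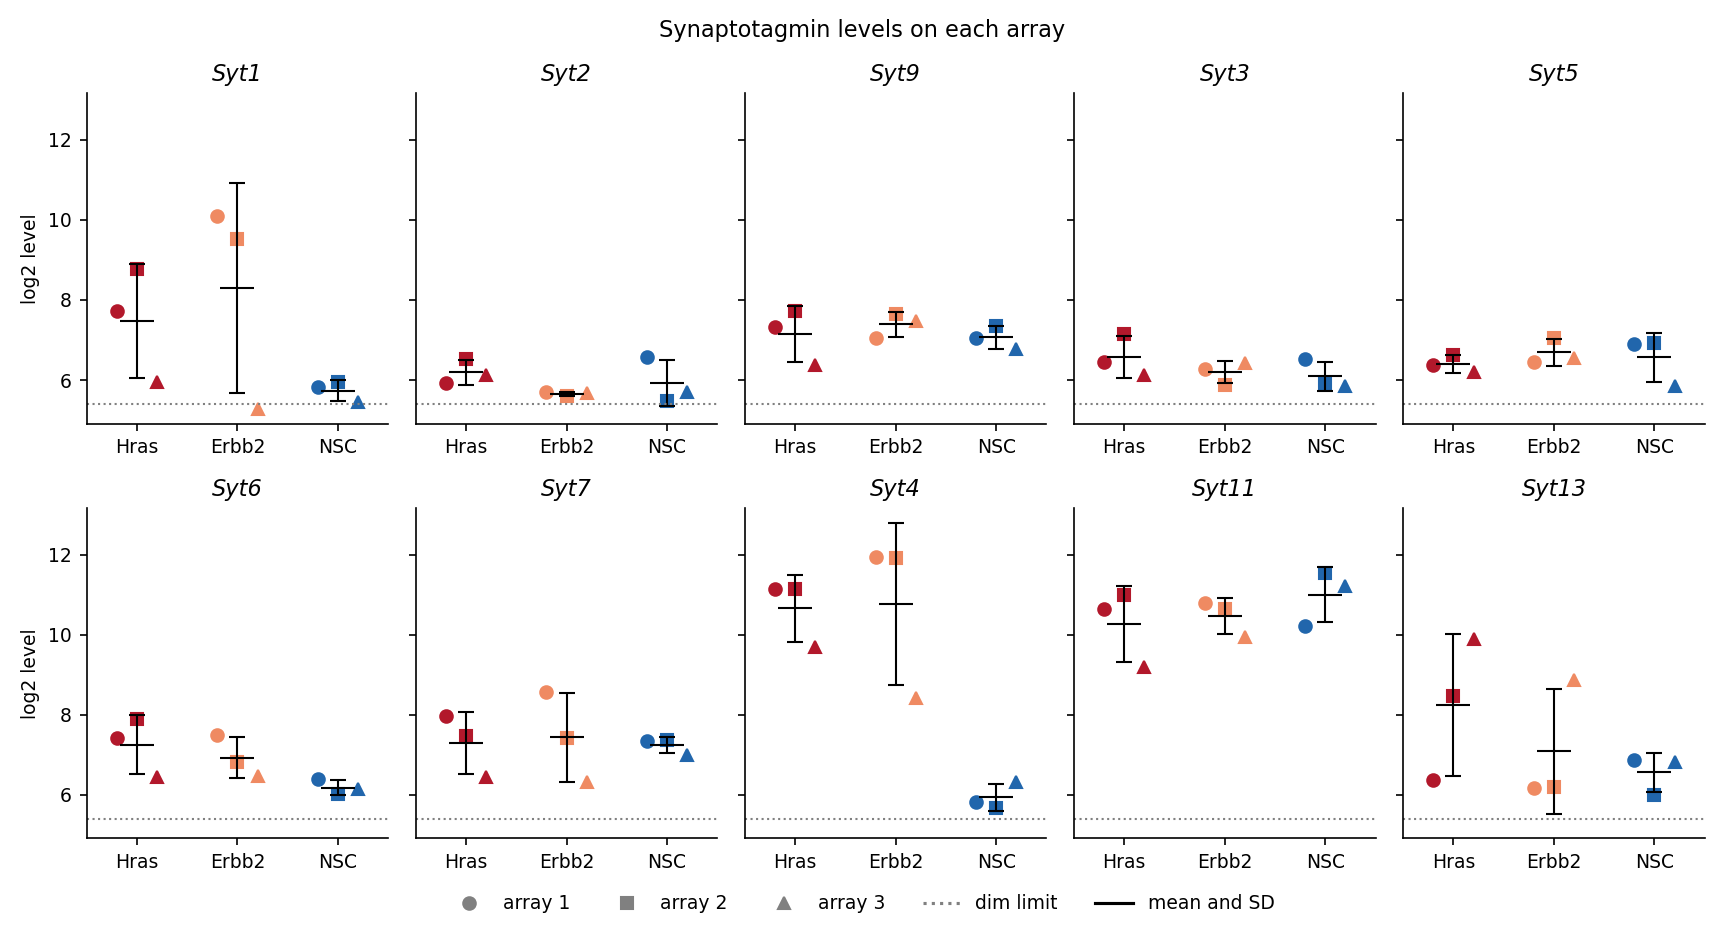
Log2 level of each of the 10 synaptotagmins on every array, by group (Hras, Erbb2, NSC), with marker shapes for arrays 1, 2 and 3, black bars for the mean and SD (n = 3), and a dotted line at the dim limit of 5.40. Syt4 lies at 8.43 to 11.95 on the tumour arrays and at 5.67 to 6.32 in NSC. Syt1 is low and Syt13 high on the third array of both tumour groups.

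Groups that do not overlap were read against the share of all genes that behave so. All Hras lines lay above all NSC arrays for 3 of the 10 members, Syt1, Syt4 and Syt6, where 11.9% of all genes did so. For Syt1 this rested on 5.95 in Hras 3 against 5.94 in NSC 2, and for Syt6 on 6.45 in Hras 3 against 6.40 in NSC 1. Both margins are smaller than the differences in scale between these arrays. Their medians over all genes were 6.98 in Hras 3, 6.81 in NSC 1 and 6.56 in NSC 2. All Erbb2 lines lay above NSC for 2 of 10, Syt4 and Syt6, beside 5.09% of all genes, and all 6 tumour lines lay above NSC for these same 2, beside 2.87% of all genes. The Hras lines lay above the Erbb2 lines for 1 of 10, Syt2, beside 25.6%, in the comparison where the median difference of all genes was 0.29. No member lay wholly below its comparison group, which 2.58% of all genes did in Hras lines against NSC, 12.6% in Erbb2 lines against NSC, 2.05% in Hras against Erbb2 lines and 1.28% in all tumour lines against NSC. Both comparisons with NSC share the same 3 NSC arrays, so their counts are not independent.

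The fit of limma over all 20690 genes was made for the genes outside the list, and the members' counts in it are given only beside the share of all genes. At an adjusted p under 0.05 it counted 1 of the 10 members, Syt4, in the mean of both tumour groups minus NSC, beside 0.353% of all genes in either direction and 0.256% as higher. The split of all genes turned with the scaling, with 53 called higher and 20 lower as deposited, 2 higher and 10 lower after quantile normalization, and 8 higher and 15 lower with arrays centred on their medians. The fit counted 0 of 10 in Hras lines minus NSC (0.00% of all genes), 0 of 10 in Erbb2 lines minus NSC (0.00967% of all genes, 0.00483% as higher) and 0 of 10 in Hras minus Erbb2 lines (0.00%). At an unadjusted p under 0.05 it counted 2, 1 and 0 members in these 3 comparisons and 2 in the mean of both tumour groups minus NSC, beside 2481, 1909, 2625 and 2078 of 20690 genes. Since the members were listed with these contrasts known, nothing is read from their counts.

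Syt4, a synaptotagmin of dense core and secretory vesicles in neurons and astrocytes, had log2 levels of 11.14, 11.15 and 9.68 in Hras 1, 2 and 3, 11.95, 11.91 and 8.43 in Erbb2 1, 2 and 3, and 5.82, 5.67 and 6.32 in NSC arrays 1 to 3. Every tumour line lay above every NSC array, and the third line of each oncogene was the lowest of its group. The mean was 10.66 ± 0.84 (SD, n = 3) in Hras lines against 5.94 ± 0.34 (SD, n = 3) in NSC, a difference of 4.72 (SE 0.86), or 26.4-fold. In Erbb2 lines the mean was 10.76 ± 2.02 (SD, n = 3), a difference from NSC of 4.83 (SE 0.86), or 28.4-fold. Ranked by signed difference among all genes, Syt4 was number 2 from the top in Hras lines minus NSC, number 4 in Erbb2 lines minus NSC and number 2 in the mean of both groups. The Hras and Erbb2 lines overlapped, with a difference of -0.10 (SE 0.86).

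The sign of the Syt4 difference held in all 15 other settings, while its size depended on single arrays. The mean of both tumour groups minus NSC was 4.77 (SE 0.75) and ranged from 4.48 without Erbb2 1 to 5.36 without Erbb2 3. The difference in Erbb2 lines ranged from 4.23 without Erbb2 1 to 5.99 without Erbb2 3, and that in Hras lines from 4.33 with centred arrays to 5.21 without Hras 3. All NSC levels of Syt4 were above the dim limit.

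Syt11, the closest relative of Syt4 in the family and a protein of vesicle and membrane traffic in neurons and glia, did not share this pattern. It was at 10.63, 11.00 and 9.21 in Hras 1, 2 and 3, at 10.78, 10.65 and 9.95 in Erbb2 1, 2 and 3, and at 10.23, 11.55 and 11.22 in NSC arrays 1 to 3. The third line of each oncogene was again the lowest of its group, and the tumour groups overlapped NSC. The difference from NSC was -0.72 (SE 0.51) in Hras lines and -0.54 (SE 0.51) in Erbb2 lines. Its sign held in all 15 other settings for both, with -0.18 in Hras lines minus NSC once Hras 3 was left out.

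Syt1, the calcium sensor of fast transmitter release, had the largest SD over the tumour lines among the 10 members. It was at 7.73, 8.77 and 5.95 in Hras 1, 2 and 3, at 10.09, 9.52 and 5.29 in Erbb2 1, 2 and 3, and at 5.81, 5.94 and 5.46 in NSC arrays 1 to 3. The first and second lines of both oncogenes stood above all NSC arrays, Hras 3 lay 0.21 above the NSC mean, and Erbb2 3 was dim. The means were 7.48 ± 1.43 in Hras lines, 8.30 ± 2.62 in Erbb2 lines and 5.74 ± 0.25 in NSC (SD, n = 3 each). The difference from NSC was 1.75 (SE 1.16) in Hras lines and 2.56 (SE 1.16) in Erbb2 lines, and both moved with single arrays. In Erbb2 lines it was 1.66 without Erbb2 1 and 4.07 without Erbb2 3, and in Hras lines it was 1.10 without Hras 2 and 2.51 without Hras 3. Over the 6 tumour lines the SD of Syt1 was 1.94, larger than that of 99.5% of all genes.

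Syt13, the atypical synaptotagmin, was at 6.37, 8.47 and 9.89 in Hras 1, 2 and 3, at 6.17, 6.21 and 8.88 in Erbb2 1, 2 and 3, and at 6.87, 6.01 and 6.82 in NSC arrays 1 to 3. The third line of each oncogene, the lowest of its group for Syt1, was the highest for Syt13, Hras 2 was above NSC for both genes, and the other tumour lines lay within the NSC range. The difference from NSC was 1.68 (SE 0.93) in Hras lines and 0.52 (SE 0.93) in Erbb2 lines. Without Hras 3 the difference in Hras lines was 0.85, and without Erbb2 3 that in Erbb2 lines turned to -0.38. Its SD over the 6 tumour lines, 1.62, was above that of 98.6% of all genes.

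Syt6, of the disulfide-linked subgroup, was at 7.42, 7.89 and 6.45 in Hras 1, 2 and 3, at 7.49, 6.83 and 6.48 in Erbb2 1, 2 and 3, and at 6.40, 6.02 and 6.14 in NSC arrays 1 to 3. Every tumour line lay above every NSC array, the third line of each oncogene only narrowly above NSC 1. The difference from NSC was 1.07 (SE 0.39) in Hras lines and 0.75 (SE 0.39) in Erbb2 lines, and neither changed sign in any of 15 other settings.

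The promoters of Syt1, Syt6 and Syt11 are shown because Syt1 and Syt6 share with Syt4 the higher levels of the first and second tumour lines, while Syt11 had lower means in tumour lines than in NSC. Each runs from 250 bases before to 50 bases after the start in RefSeq (GRCm38.p6), 5′ to 3′ on the gene's strand. Capitals mark, on either strand, the Ets core CCGGAAG, which is bound by factors of the family that the title of the series names, the GC box GGGCGG and the E-box CACGTG. No matches overlap in these sequences. They lie at chr10:109010926-109011225 (minus strand), chr3:103574995-103575294 (plus strand) and chr3:88772550-88772849 (minus strand). A gene can have more than 1 promoter, and only the first listed for each gene is shown. The Syt11 window lies inside the gene, which spans 88744699 to 88775159, so it belongs to an internal start.
Syt1: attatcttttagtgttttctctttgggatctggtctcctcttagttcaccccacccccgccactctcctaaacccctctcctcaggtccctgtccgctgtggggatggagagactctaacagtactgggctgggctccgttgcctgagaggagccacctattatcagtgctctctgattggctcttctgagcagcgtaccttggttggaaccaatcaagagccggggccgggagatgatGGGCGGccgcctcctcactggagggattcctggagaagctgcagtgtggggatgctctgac
Syt6: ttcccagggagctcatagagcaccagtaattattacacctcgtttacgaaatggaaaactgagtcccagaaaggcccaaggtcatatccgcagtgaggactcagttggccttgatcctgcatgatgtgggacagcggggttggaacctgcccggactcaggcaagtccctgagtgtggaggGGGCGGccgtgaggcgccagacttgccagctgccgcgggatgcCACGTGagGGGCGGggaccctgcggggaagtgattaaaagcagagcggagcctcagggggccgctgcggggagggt
Syt11: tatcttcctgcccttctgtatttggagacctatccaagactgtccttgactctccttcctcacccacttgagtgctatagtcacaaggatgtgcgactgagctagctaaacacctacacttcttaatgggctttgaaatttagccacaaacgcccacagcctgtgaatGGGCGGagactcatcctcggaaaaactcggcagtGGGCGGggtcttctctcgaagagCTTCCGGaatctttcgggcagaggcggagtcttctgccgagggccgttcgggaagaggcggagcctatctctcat

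The Syt1 promoter shown holds 1 GC box, that of Syt6 holds 2 GC boxes and 1 E-box, and the internal one of Syt11 holds 2 GC boxes and 1 Ets core. Of 32851 promoters in the table, 8.86% hold the Ets core, 35.7% the GC box and 7.15% the E-box. Promoters were matched for 6 of the 10 members, Syt1, Syt2, Syt3, Syt6, Syt9 and Syt11, 10 promoters in all, of which 1, 8 and 2 hold these motifs in the same order. The 2 with the E-box are both of Syt6. A match describes the letters only, and the arrays do not measure binding. The G+C content is 56.7% for Syt1, 61% for Syt6 and 53% for Syt11, with 8, 16 and 14 CpG pairs.

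Syt7, the slow sensor, was at 7.96, 7.48 and 6.46 in Hras 1, 2 and 3, at 8.56, 7.42 and 6.33 in Erbb2 1, 2 and 3, and at 7.35, 7.36 and 7.00 in NSC arrays 1 to 3. The first and second line of each oncogene were above and the third lines below all NSC arrays, so the group means nearly coincided. The difference from NSC was 0.06 (SE 0.55) in Hras lines and 0.20 (SE 0.55) in Erbb2 lines, and both change sign when a single array is left out. The spread over the tumour lines, an SD of 0.86, exceeded that of 91.9% of all genes.

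Syt2, the fast sensor of many hindbrain and neuromuscular synapses, ranged from 5.91 to 6.54 in Hras lines, from 5.60 to 5.69 in Erbb2 lines and from 5.47 to 6.57 in NSC. The Hras lines lay above the Erbb2 lines by 0.53 (SE 0.30), a difference of 0.07 after quantile normalization. The Syt2 ranges of both tumour groups lay within that of NSC. Syt9 ranged from 6.37 to 7.73 in Hras lines, from 7.05 to 7.65 in Erbb2 lines and from 6.78 to 7.36 in NSC. Its differences from NSC were 0.08 (SE 0.35) in Hras lines, with a sign that turned in 6 of 15 other settings (centring, quantile normalization, array weights, and without Hras 1, Hras 2 or NSC 3), and 0.32 (SE 0.35) in Erbb2 lines.

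Syt3 and Syt5 also overlapped between groups. Syt3, the relative of Syt6, ranged from 6.12 to 7.15 in Hras lines, from 5.89 to 6.43 in Erbb2 lines and from 5.86 to 6.52 in NSC, with differences from NSC of 0.48 (SE 0.31) in Hras and 0.10 (SE 0.31) in Erbb2 lines. Syt5 ranged from 6.19 to 6.63 in Hras lines, from 6.45 to 7.06 in Erbb2 lines and from 5.86 to 6.93 in NSC, with differences of -0.16 (SE 0.32) and 0.12 (SE 0.32). These are within the spread of the arrays, and the signs for Syt5, and for Syt3 in Erbb2 lines, change when 1 of certain arrays is left out.

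**Figure D2:**
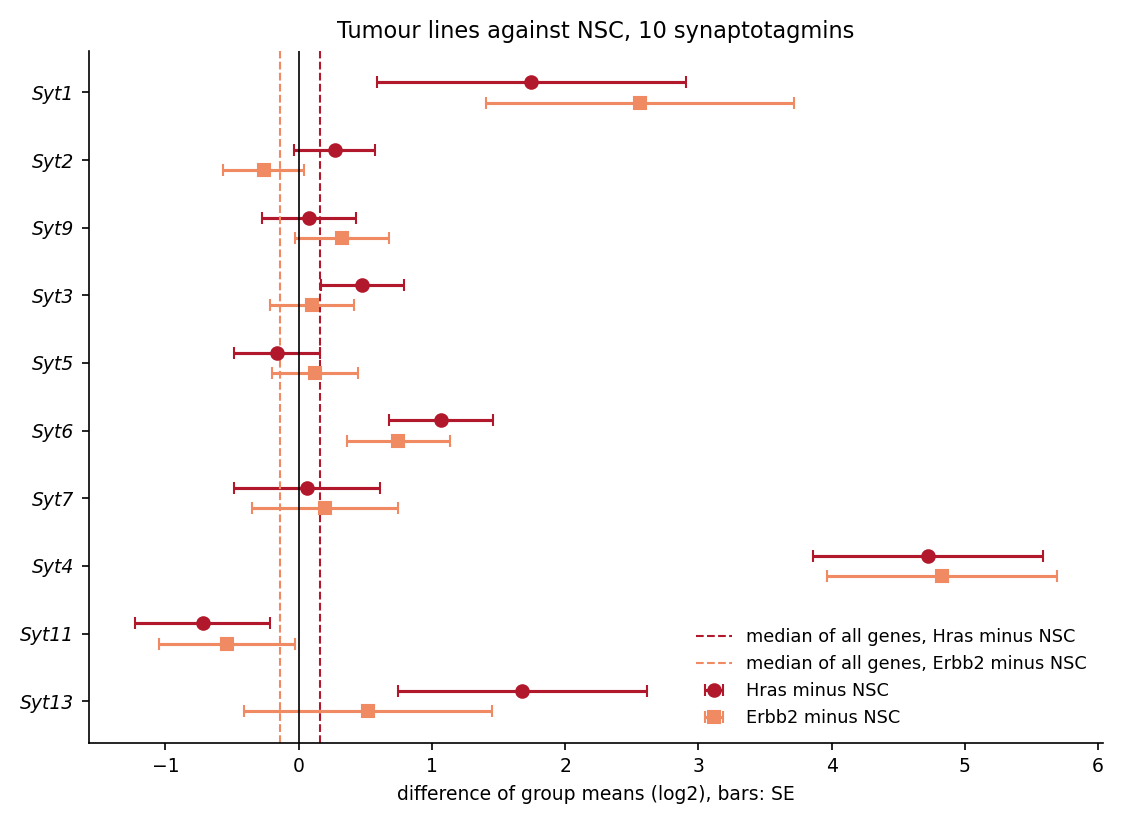
Differences of group means in log2 units (points) with limma's SE (bars) for Hras lines minus NSC (circles) and Erbb2 lines minus NSC (squares), with dashed lines at the median difference of all genes, 0.16 and -0.14. Syt4 stands at 4.72 and 4.83, and the bars of Syt2, Syt5, Syt7 and Syt9 cross 0 in both comparisons.

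Genes with the most similar pattern over the 9 arrays were taken for the 3 members with the widest range, by Pearson correlation of log2 levels. They are the extremes of a search over all genes, and their correlations are a description with no p. For Syt4 they were Il1rap, a chain of the interleukin-1 receptor (r = 0.976, Spearman's rho = 0.967, 9 arrays), the stress-induced transcription factor Atf3 (r = 0.974, rho = 0.933) and the integrin chain Itga4 (r = 0.974, rho = 0.933). Itga4 was at 10.14, 10.32 and 9.29 in Hras lines, 10.97, 10.10 and 8.97 in Erbb2 lines and 7.66, 6.86 and 7.09 in NSC, so it too was above NSC on every tumour array and lowest in the third lines.

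For Syt1 the most similar genes were Shisa7, an accessory protein of GABA receptors (r = 0.966, rho = 0.833), Leprel1, a collagen prolyl hydroxylase (r = 0.961, rho = 0.817), and Gpr17, a receptor of differentiating oligodendrocyte precursors (r = 0.957, rho = 0.883). Gpr17 was at 7.53, 7.14 and 5.48 in Hras lines, 9.54, 8.24 and 5.12 in Erbb2 lines and 5.87, 6.04 and 5.63 in NSC. It is itself on the list of oligodendrocyte precursor markers described next. For Syt13 they were Irgm2, an interferon-inducible GTPase (r = 0.991, rho = 0.983), Dhx58, a helicase of the antiviral RNA sensing family (r = 0.988, rho = 0.967), and the ADP-ribosyltransferase Parp14 (r = 0.986, rho = 0.817). Dhx58 was at 5.36, 7.58 and 9.93 in Hras lines, 4.74, 5.15 and 8.79 in Erbb2 lines and 5.49, 4.96 and 5.35 in NSC. It was dim on 5 of the 9 arrays and high in Hras 2, Hras 3 and Erbb2 3, where Syt13 was high too.

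**Figure D3:**
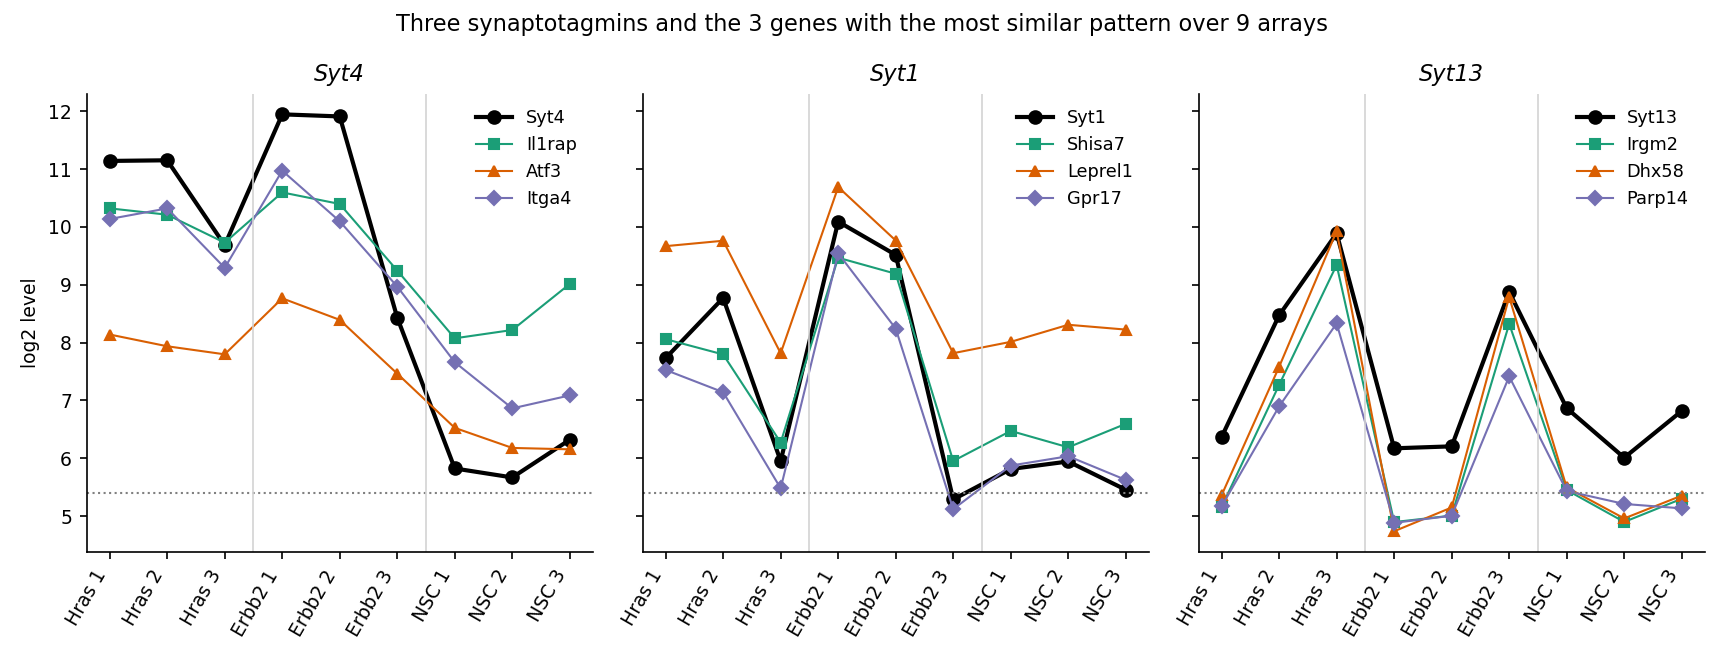
Log2 level of Syt4, Syt1 and Syt13 (black) and of the 3 genes with the highest Pearson correlation to each (colours) on the 9 arrays in the order Hras, Erbb2, NSC, with a dotted line at the dim limit. Syt13 and its 3 genes peak on Hras 3 and Erbb2 3, where Syt1 and its genes are lowest among the tumour lines.

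Markers of other cell types moved with some of these genes. The marker lists, like the members, were chosen with earlier results of these data known. The mean log2 level of 10 oligodendrocyte precursor markers was 10.49, 9.36 and 7.64 in Hras 1, 2 and 3, 10.58, 9.99 and 8.01 in Erbb2 1, 2 and 3, and 8.02, 8.30 and 8.28 in NSC arrays 1 to 3. The third lines were the lowest of their groups, as for Syt1, Syt4, Syt6, Syt7 and Syt11. This was not particular to precursor markers. Myelin marker means were 8.12, 7.38 and 6.33 in Hras 1, 2 and 3, and 8.06, 7.93 and 6.07 in Erbb2 1, 2 and 3. Means of the neuron and synaptic vesicle lists described below were also lowest in the third lines. Those of the astrocyte, microglia, vessel, C2 domain and SNARE lists were not, and that of granule proteins was so only in Hras lines. Of the 10 precursor markers 1 was called in the mean of both tumour groups minus NSC, beside 53 of 20690 genes called higher. This was Pdgfra, higher by 4.92 (SE 0.59, limma adjusted p = 0.0246). Its adjusted p in limma's fit was 0.0514 after quantile normalization and 0.0584 to 0.133 without Hras 2, Erbb2 1 or any NSC array, and under 0.05 in the other 9 settings. Over the list 7 of 10 differences were positive and 3 negative, from -0.91 to 4.92, beside 10643 positive of all 20690 genes. Dim markers numbered 0 of 10 on each Hras array, 0 to 2 on Erbb2 arrays and 0 or 1 on NSC arrays. Their part in the synaptotagmin levels was not tested. Of 12 astrocyte markers 11 had negative differences and 1 a positive one in the mean of both tumour groups minus NSC. They ran from -4.32 to 1.95, with a list median of -1.69. At an unadjusted p under 0.05 in limma's fit 8 were counted, beside 2078 of 20690 genes. Called lower were 2 of the 12, Slc6a11 (-4.32) and Fgfr3 (-2.51), beside 20 of 20690 genes. Both stayed lower throughout, but limma's adjusted p for Slc6a11 was above 0.05 in 11 of 15 other settings (up to 0.214, without NSC 2), and that for Fgfr3 without Hras 1, Hras 2, Erbb2 1, NSC 2 or NSC 3 (up to 0.148). None of 8 myelin, 10 microglia or 10 endothelial and pericyte markers was called by limma there. With an unadjusted p under 0.05 in that fit they numbered 0, 1 and 1, beside 2078 of 20690 genes. Differences were positive for 6 of 8 myelin, 3 of 10 microglia and 7 of 10 endothelial and pericyte markers. The list medians were 0.36, -0.08 and 0.05. Named from these lists are Ugt8a (2.18) for myelin, P2ry12 (0.76) and Tmem119 (0.53) for microglia, and Acta2 (-2.27) and Pdgfrb (0.44) for vessels, with limma adjusted p of 0.0655 for Acta2 and 0.387 to 0.750 for the others.

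Neuron markers gave a less even picture. The mean of 29 neuron and neuroblast markers was 7.70, 8.00 and 7.34 in Hras 1, 2 and 3 and 7.90, 7.35 and 6.92 in Erbb2 1, 2 and 3. It was 7.06 to 7.18 in NSC, with 1 to 7 of the markers dim on an array. None was called in limma's fit in the mean of both tumour groups minus NSC. At an unadjusted p under 0.05 in that fit the count was 6, beside 2078 of 20690 genes. Of the 29 differences 21 were positive and 8 negative, from -1.27 to 3.15, beside 10643 positive of all 20690 genes. The neuronal splicing factor Rbfox3 was at 5.78 to 6.41 in Hras lines, 5.84 to 5.89 in Erbb2 lines and 5.83 to 6.39 in NSC, and the microtubule regulator Stmn2 was dim on 6 of 9 arrays, with 8.76 in Hras 3. The neurofilament Nefl was at 9.71, 9.76 and 10.98 in Hras lines, 11.29, 8.33 and 6.58 in Erbb2 lines and 7.04, 5.71 and 6.11 in NSC (mean of both tumour groups minus NSC 3.15, SE 0.86, limma adjusted p = 0.217), and Nefm differed by 1.74 (limma adjusted p = 0.333). Tubb3 and the neuroblast gene Dcx differed by 1.01 and 0.98 (limma adjusted p = 0.499 and 0.665). The part of neuron-like cells in the synaptotagmin levels was not tested.

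The 7 synaptotagmins outside the list were in the same fit, and 0 of 7 were called in any comparison by limma. They are those left out of a list drawn up with levels on these arrays known, so their counts are a description. At an unadjusted p under 0.05 the counts were 2 in Hras lines minus NSC, 1 in Erbb2 lines minus NSC, 0 in Hras minus Erbb2 lines and 2 in the mean of both tumour groups minus NSC, beside 2481, 1909, 2625 and 2078 of all 20690 genes. Syt12, which binds no calcium, was at 7.18, 7.01 and 7.15 in Hras lines, 6.85, 6.65 and 7.21 in Erbb2 lines and 6.50, 5.85 and 5.85 in NSC. All tumour lines lay above NSC, by 0.94 in the mean of both groups (SE 0.21, limma adjusted p = 0.146). Syt14 also lay above NSC on every tumour array, by 1.25 (SE 0.41, adjusted p = 0.307 in limma's fit), with 1 of 3 NSC arrays dim. For Syt14 this rested on 5.96 in Erbb2 2 against 5.93 in NSC 1. That margin is smaller than the difference in scale between these arrays, whose medians over all genes were 6.56 and 6.81. All tumour lines thus lay above NSC for 2 of the 7, beside 2.87% of all genes. For Syt8, Syt10, Syt15, Syt16 and Syt17 the tumour lines overlapped NSC. Their differences were -0.26 to 0.32 in the mean of both tumour groups minus NSC, with limma adjusted p of 0.713 to 0.918.

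The machinery with which synaptotagmins act was described by lists, which were also chosen with earlier results of these data known. Of 22 related C2 domain proteins (synaptotagmin-like, extended synaptotagmin, Doc2, rabphilin, Rim, Mctp and ferlin families) 0 were called by limma in the mean of both tumour groups minus NSC and 3 had an unadjusted p under 0.05, beside 2078 of 20690 genes, with a median difference of 0.06 beside 0.01 for all genes. The same count of all genes stands beside the lists that follow in this comparison. Esyt1, which tethers the endoplasmic reticulum to the plasma membrane, was above NSC in every tumour line, by 2.19 (SE 0.44, limma adjusted p = 0.106). The ferlin Myof was at 5.55, 9.67 and 10.57 in Hras lines, 5.43, 4.81 and 8.74 in Erbb2 lines and 5.69, 5.80 and 5.60 in NSC, a difference of 1.76 (SE 1.14, limma adjusted p = 0.663) with high values in Hras 2, Hras 3 and Erbb2 3.

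Of 43 SNARE proteins and fusion factors 0 were called by limma in that comparison, 5 had an unadjusted p under 0.05, and the median difference was -0.00068. Snap25, a SNARE that Syt1 binds at synapses, had lower values in most tumour lines, with 6.94, 6.74 and 6.97 in Hras lines, 7.13, 8.02 and 5.91 in Erbb2 lines and 8.15, 8.07 and 7.60 in NSC (difference -0.99, SE 0.39, limma adjusted p = 0.432).

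Of 41 synaptic vesicle and active zone proteins 1 was called, beside 53 of 20690 genes called higher. This was Dnm1, the dynamin of vesicle retrieval, at 8.76, 9.02 and 8.59 in Hras lines, 9.88, 8.55 and 8.61 in Erbb2 lines and 6.57, 6.35 and 7.04 in NSC. It rose by 2.24 (SE 0.32, limma adjusted p = 0.0392), above NSC on all 6 tumour arrays. The adjusted p of limma was 0.0651 after quantile normalization, 0.0573 with centred arrays, and 0.0381 to 0.208 when 1 array was left out, under 0.05 only without Erbb2 2 or Erbb2 3. The list had a median difference of 0.22, and 10 of its members had an unadjusted p under 0.05. The vesicle protein Syp differed by 0.12 (SE 0.37, limma adjusted p = 0.941).

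Of 20 dense core granule proteins 0 were called by limma in the mean of both tumour groups minus NSC, 3 had an unadjusted p under 0.05, and the median difference was 0.04. Ica1, associated with secretory granule membranes, and Nucb2, a nucleobindin, were above NSC on every tumour array, by 1.66 (SE 0.37) and 1.39 (SE 0.30), with limma adjusted p of 0.136 and 0.135. In the separate comparisons limma called 0 members of these 4 lists in Hras lines minus NSC, in Erbb2 lines minus NSC and in Hras minus Erbb2 lines. At an unadjusted p under 0.05 the counts for C2 domain, SNARE, vesicle and granule lists were 3, 5, 7 and 4 in Hras lines minus NSC, 2, 6, 7 and 4 in Erbb2 lines minus NSC, and 6, 10, 7 and 5 in Hras minus Erbb2 lines. Over all 20690 genes the counts in these 3 comparisons were 2481, 1909 and 2625.

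**Figure D4:**
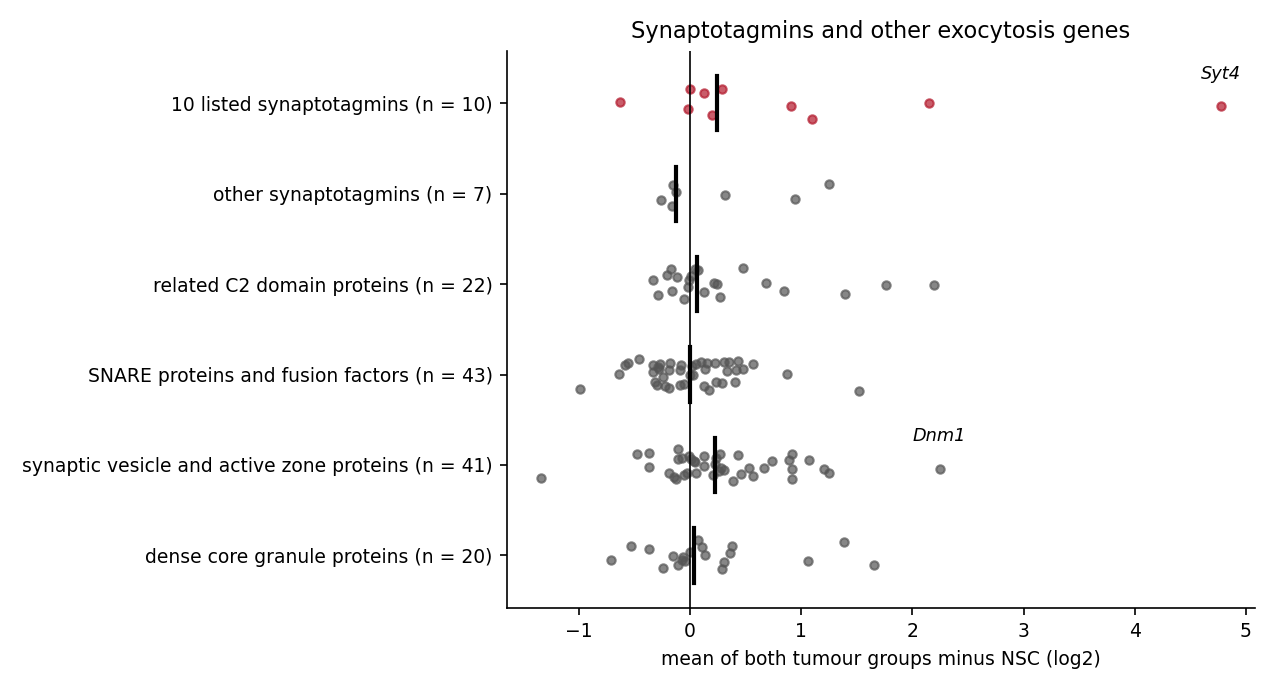
Difference of the mean of both tumour groups minus NSC (log2) for the 10 listed synaptotagmins, the 7 others and 4 lists of exocytosis genes, with a point per gene, and a black bar at each list's median. Syt4 and Dnm1 are named. Syt4 is at 4.77, beyond every other gene plotted, and Dnm1 follows at 2.24.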

How the data were processed

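Log2 levels per gene and linear intensities per probe set were deposited by the authors for the 9 arrays, and 0 value columns were left unmatched to a sample. How the authors corrected background, normalized and summarised probes: not given in the sources used here. Of 20715 rows, 25 with a number for a symbol were left out. The intensity table, deposited without gene names, served only to match each synaptotagmin row to a probe set within 1e-04 on the log2 scale.

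A single limma 3.58.1 fit (R 4.3.3) of 3 group means over 9 arrays and 20690 genes gave differences, SE and Benjamini-Hochberg adjusted p, called under 0.05. The script was tested on simulated data. Alternatives were quantile normalization, centring, a filter on dim genes (above the limit on at least 3 arrays), the replicate block, limma-trend, array weights and each array left out. The replicate block joins arrays of all 3 groups by the number in their titles. It does so for NSC too, although the descriptions of these arrays open with 4, 4 and 5. Members and gene lists were chosen with earlier results of these data known. Named genes are all synaptotagmins, the transgenes' genes and 6 neuron markers (Rbfox3, Tubb3, Snap25, Syp, Stmn2, Dcx); per list, up to 4 called genes or the 2 with the largest difference; and the 3 most similar genes for the 3 members of widest range. Some genes that this rule names are not reported here. The lists hold synaptotagmins, related C2 domain, SNARE, vesicle and granule proteins, and markers of neurons, astrocytes, oligodendrocyte precursors, myelin, microglia and vessels. Of 227 list entries 225 were matched, Hras and Stxbp3 through older symbols. Promoters come from RefSeq.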

Additional observations from a re-analysis of the deposited data

Results flagged for a closer look

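Syt10, outside the list of 10, had all Hras arrays above and all Erbb2 arrays below the NSC mean, a difference that limma did not call. It lay 0.15, 0.26 and 0.09 above the NSC mean in Hras 1, 2 and 3, and 0.13, 0.45 and 0.67 below it in Erbb2 1, 2 and 3, a difference of 0.58 between the groups (SE 0.32, limma adjusted p = 0.422). It was dim on 2 of 3 Erbb2 arrays and on 2 of 3 NSC arrays, and the NSC arrays themselves lay at 0.76, -0.34 and -0.41 from their mean. The difference was 0.13 after quantile normalization.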

How the results depend on the processing

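Counts of calls depended on the processing, and 0 of the recomputed values reversed a called difference. Over all genes, limma called 0 in Hras lines minus NSC, against 2 after quantile normalization, 1 with arrays centred on their medians, 9 with the replicate block, 70 with array weights, and 0 to 76 with 1 array left out, 76 without NSC 1. In Erbb2 lines minus NSC it called 2, against 1 after quantile normalization, 8 without dim genes, 27 with the replicate block, 7 with limma-trend, 37 with array weights, and 0 to 13 with 1 array left out. In the mean of both tumour groups minus NSC it called 73, against 12 after quantile normalization, 23 with centred arrays, and 0 (without NSC 2) to 70 with 1 array left out. In Hras minus Erbb2 lines it called 0 in all 15 settings. Of the 10 members, counted without reading a test, quantile normalization and centring each left 0 called in the mean of both tumour groups, and with 1 array left out 0 to 1 were called there, in Hras lines minus NSC and in Erbb2 lines minus NSC. The synaptic vesicle list went to 0 under quantile normalization and centring, and to 0 to 1 with 1 array left out, as in Hras lines minus NSC. Leaving out 1 array also gave 0 to 1 for C2 domain proteins in the mean of both tumour groups and for neuron markers in that comparison and in each tumour group minus NSC. The cause was not tested. Whether equal numbers pair the arrays could not be told from 3 correlations. Deviations from the group means of Hras and Erbb2 arrays with the same number correlated at 0.34, -0.34 and 0.44. The descriptions of the Hras and of the Erbb2 arrays open with 1, 2 and 3, those of NSC with 4, 4 and 5. What these opening numbers stand for is not known here. The alternative through a platform annotation was not run. With 3 arrays a group and a residual of 6 degrees of freedom, precision is limited by the number of arrays, and low values of Syt1 and Syt10 lie at the dim limit.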
